A study of Drosophila melanogaster with 12 samples.

Results

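Hypophosphorylated RNA polymerase II (Pol II) gave a peak at 382 sites in both mock libraries and at none of these sites in any knockdown library. The peaks of both mock libraries were joined where they overlapped or touched, which gave 6089 regions, of which 5344 overlapped a peak of each mock library. A site was kept when it overlapped no peak, by even 1 bp, in the 4 lists made after depletion of AGO2 or LaminB. The 382 sites were 7.15% of the 5344 shared regions. The sites were thus chosen by the peak calls themselves, so presence in mock and absence after knockdown are given as a description, without a test. The cells were Kc167, a line from Drosophila melanogaster embryos that is female. Mock cells were transfected without RNA. The siAGO2 cells received 100 pmol of a short interfering RNA against AGO2, and the dsLaminB cells received 2 µg of a long double-stranded RNA against LaminB. Chromatin was collected 3 days after transfection and precipitated with the antibody 8WG16 (Biolegend), and each treatment had 2 libraries. Kc167 is 1 cell line, and the labels do not say whether libraries came from separate cultures. Mock cells received no RNA, so effects of transfected RNA and of depletion cannot be told apart.

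RNA polymerase II assembles at promoters with its carboxy-terminal tail largely unphosphorylated, and the tail becomes phosphorylated as the enzyme leaves the promoter. In Drosophila, the enzyme often halts shortly after initiation, and the pausing factor NELF helps to hold it there. An antibody such as 8WG16 that prefers the unphosphorylated tail therefore mainly reads occupancy near transcription start sites (TSSs). AGO2, an Argonaute, carries small RNAs in RNA interference and is also found on chromatin, while LaminB is a filament protein that lines the inside of the nuclear envelope.

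The following promoters are shown because they serve as examples of sites described in the results: a metallothionein gene with a TATA box, genes with a DNA replication-related element (DRE), and mitochondrial ribosomal protein genes. Of the last, mRpL45, mRpL14 and mRpS18C were picked because they carry an E-box, and mRpL49 is one that does not. Each run is 110 bases of the gene's strand, 80 before the TSS and 30 from the TSS on, read from the RefSeq sequence of Release 6 (dm6). Capitals mark the motifs searched for on either strand. These were the box of the TATA-binding protein (TATAAA), the DRE (TATCGATA) and the E-box (CAGCTG). The element bound by GAGA factor (GAGAG) and part of the initiator (TCAGT) were searched as well. The windows are MtnA at chr3R:9784341-9784450 on the minus strand, Rpt3R at chr3R:9756185-9756294 on the minus strand and ppl at chr3L:21281477-21281586 on the minus strand. The others are mRpL45 at chr3R:22618412-22618521 on the plus strand, mRpL14 at chrX:2344620-2344729 on the minus strand, mRpS18C at chr3R:30423894-30424003 on the plus strand and mRpL49 at chrX:12907025-12907134 on the plus strand.
MtnA: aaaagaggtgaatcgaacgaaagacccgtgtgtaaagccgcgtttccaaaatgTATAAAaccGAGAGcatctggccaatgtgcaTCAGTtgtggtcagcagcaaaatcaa
Rpt3R: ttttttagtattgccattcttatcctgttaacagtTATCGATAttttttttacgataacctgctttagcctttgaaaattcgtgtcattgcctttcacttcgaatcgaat
ppl: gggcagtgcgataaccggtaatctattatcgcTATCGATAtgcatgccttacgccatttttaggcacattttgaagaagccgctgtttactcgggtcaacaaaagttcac
mRpL45: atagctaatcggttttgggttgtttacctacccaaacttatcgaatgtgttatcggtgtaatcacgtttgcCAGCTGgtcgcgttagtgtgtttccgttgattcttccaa
mRpL14: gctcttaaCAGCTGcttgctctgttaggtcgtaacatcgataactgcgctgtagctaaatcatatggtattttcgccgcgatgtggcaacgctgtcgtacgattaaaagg
mRpS18C: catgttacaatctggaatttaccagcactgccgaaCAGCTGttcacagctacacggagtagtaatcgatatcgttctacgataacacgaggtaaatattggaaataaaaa
mRpL49: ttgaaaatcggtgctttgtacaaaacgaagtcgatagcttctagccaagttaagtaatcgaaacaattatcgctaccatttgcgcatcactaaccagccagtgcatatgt
The TATA box of MtnA begins 27 bases before the TSS. The DRE begins 45 bases before it in Rpt3R and 48 in ppl. The E-box lies 9 bases before the TSS in mRpL45, 72 in mRpL14 and 45 in mRpS18C, and the window of mRpL49 holds none of the motifs. A match is a description of these letters only.

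Each of the 6 lists was called separately from 1 library, and the lists differed in length. The mock lists held 5965 peaks (replicate 1) and 5601 (replicate 2). The siAGO2 lists had 4089 and 5381 peaks, and the dsLaminB lists 2531 and 4124. The numbers of reads behind the lists are unknown from the files. Of 11 hemocyte genes fixed as markers of the line, 7 had a peak in all 6 lists and 2 (NimC1 and He) in none. Of the other cell types, a peak in all 6 lists was found at 0 of 3 muscle genes, 1 of 3 neuron genes (elav), 1 of 2 germline genes (vas) and the gut gene esg. The markers of other cell types were thus not uniformly without a peak. AGO2 itself kept a peak on its gene body in all 6 lists and Lam, which encodes LaminB, in 5, and neither is among the sites.

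The shared mock regions went missing from the lists to very different extents. In siAGO2 replicate 1, 1411 of the 5344 regions (26.4%) had no peak, against 477 (8.93%) in siAGO2 replicate 2. In dsLaminB replicate 1, 2984 regions (55.8%) had none, against 1571 (29.4%) in dsLaminB replicate 2. Regions absent from both siAGO2 lists numbered 417 (7.8%), and those absent from both dsLaminB lists 1539 (28.8%). The 382 sites were 91.6% of the first set and 24.8% of the second.

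The longest knockdown list, siAGO2 replicate 2, weighed most in the choice of sites. They were 80.1% of the 477 regions that it lacked. Without that library, the count was 1118. Leaving out siAGO2 replicate 1 gave 429, dsLaminB replicate 1 gave 384 and dsLaminB replicate 2 gave 415. With presence required in mock replicate 2 alone the count was 507, and in mock replicate 1 alone 832. Of the 818 shared regions with a peak in exactly 1 knockdown list, 736 (90%) had it in siAGO2 replicate 2. In the opposite direction, 0 of the 6529 regions made by joining all 6 lists had a peak in all 4 knockdown lists and in neither mock list. That rule needed a peak in the shortest list, dsLaminB replicate 1 with 2531 peaks. It also needed none in the longest lists, the mock lists with 5965 and 5601 peaks. List length thus worked against such regions, so this count cannot be set beside that of the sites. Whether Pol II changed mainly in a single direction was not tested.

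Peaks were ranked within each mock list by −log10 q, the significance given by the peak caller, and the rank was expressed as a percent of the list, from 0 for the most significant peak to 100 for the last. The sites lay at the end of both lists. Their median rank was 85.1% in mock replicate 1, with a lowest value of 41.1% and a highest of 99.8%. In mock replicate 2 the median was 89.8%, from 36.2% to 99.9%. The medians over all 5344 shared regions were 45.0% and 48.0%. The median −log10 q of the sites was 4.51 in mock replicate 1 and 3.19 in mock replicate 2, against 18.4 and 13.2 over all shared regions. Fold enrichment over the local background had medians of 3.36 and 3.18 at the sites and of 6.01 and 5.28 over all shared regions. Only 1 site was in the better-ranked 50% of both lists, while 31.7% lay in the last decile of the first list and 49.2% in the last decile of the second. Rank bears on which peaks a shorter list keeps, so it is not independent of the rule.

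**Figure D1:**
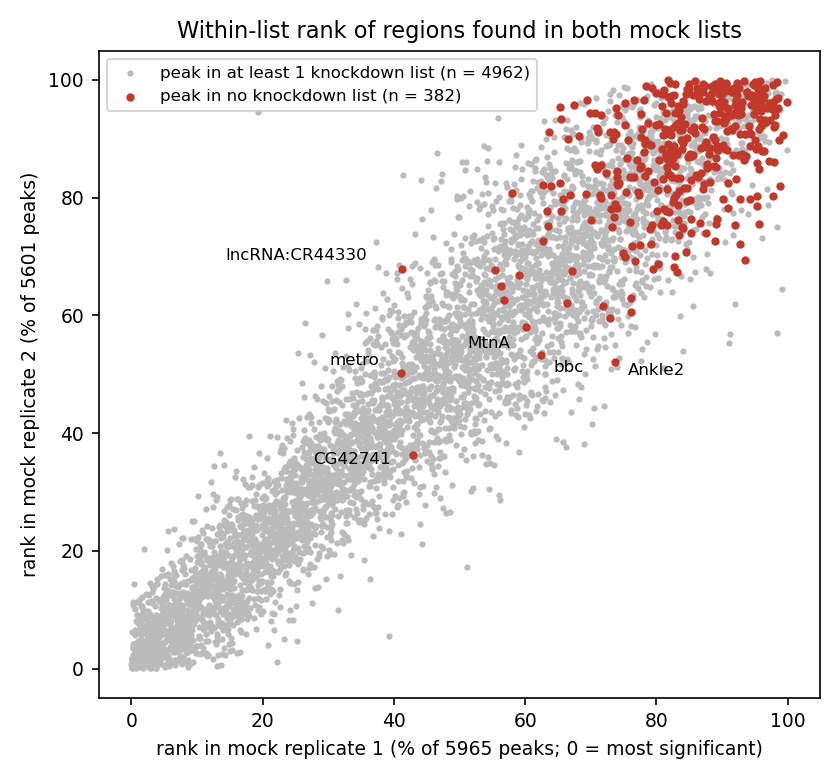
Each point is 1 of the 5344 regions with a peak in both mock libraries, placed by its rank within the list of mock replicate 1 (x axis, percent of 5965 peaks) and mock replicate 2 (y axis, percent of 5601 peaks), where 0 is the most significant. The 382 sites with no knockdown peak (red) crowd the upper right corner, with medians of 85.1% and 89.8%, and labelled sites such as CG42741, metro and MtnA stand apart at better ranks.

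The ordering by rank was steep. With the shared regions divided into deciles by mean rank, the first 4 deciles held 0 sites. The following deciles held 2, 1, 8, 22, 107 and 242 sites in turn. The last decile alone had 63.4% of them, and 45.3% of its regions were sites. In that decile, 51.3% of the regions had no peak in siAGO2 replicate 2, and the absent share was 91.9% in siAGO2 replicate 1, 99.1% in dsLaminB replicate 1 and 91.6% in dsLaminB replicate 2. Each list lost regions from the end of the mock lists, and the lists differed in how far up the loss reached.

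**Figure D2:**
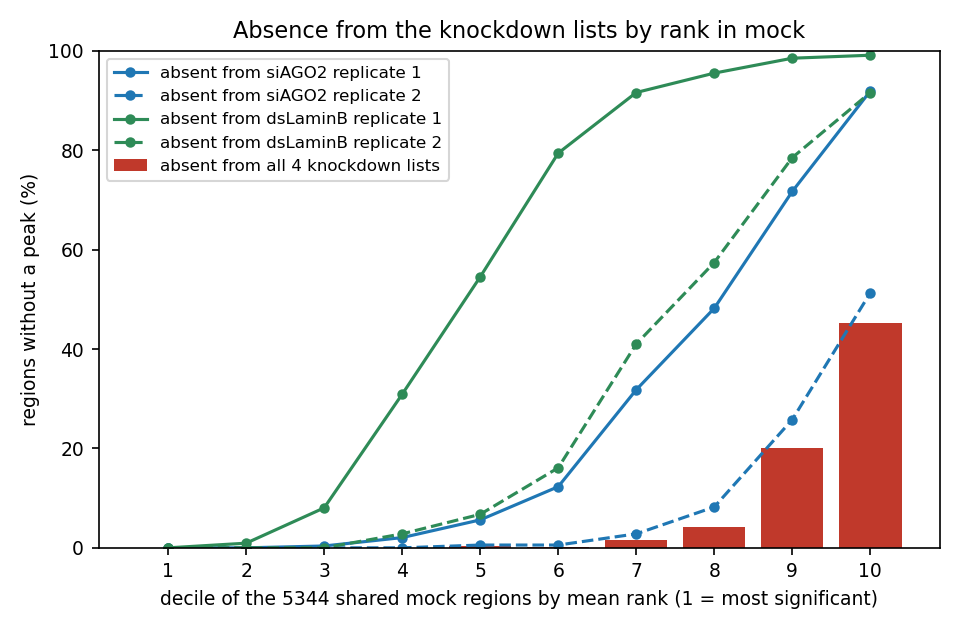
The x axis gives deciles of the 5344 shared mock regions by mean rank (1 the most significant), and the y axis the percent of each decile without a peak. Lines are the 4 knockdown lists and bars the regions absent from all 4, which make up 20% of decile 9 and 45.3% of decile 10.

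Several properties changed stepwise with the number of knockdown lists in which a shared region had a peak. Median mean rank was 87.2% at the sites (0 lists) and 77.4%, 66.4%, 51.2% and 20.1% for regions in 1, 2, 3 and 4 lists. Median width rose over the same classes, from 319 bp to 398, 496.5, 646 and 796 bp. The share of regions within 500 bp of a TSS was 82.7% at the sites and 89.6%, 94.0%, 96.0% and 98.2% in the other classes. In rank, width and distance to a TSS, the sites were thus the end of a series. G+C content had no such order, with medians of 45.4%, 48.1%, 47.0%, 46.0% and 45.9%.

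Because rank was so closely tied to membership, the sites were also set beside regions of like rank. This comparison was chosen after the values had been seen. The last 2 deciles of the shared regions held 349 sites and 719 other regions. Even there the sites sat lower, with 34.7% of them in the last decile of the list of mock replicate 1 against 13.9% of the others, so rank was not fully equalised.

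Width ran from 162 to 1853 bp, with quartiles of 247 and 533.75 bp around the median of 319 bp. Width is not independent of a rule that allows no overlap, and its part in the choice was not tested. Other settings gave larger medians, of 497 bp with a −log10 q of at least 5, 530 bp with equal list lengths and 536.5 bp with 50% coverage. They chose partly or wholly other regions, with 47, 0 and 317 of the 382 sites among them in turn. Only the 50% coverage setting relaxed the overlap rule. Medians were smaller without mock replicate 1 (224 bp) or mock replicate 2 (241 bp), and larger without siAGO2 replicate 2 (372 bp). All shared regions had a median of 631 bp, and the 719 other regions of the last 2 deciles 451 bp. The best peak at a site had a median width of 287 bp in mock replicate 1 and 237.5 bp in mock replicate 2, and at 69.4% of sites it was the wider one in replicate 1. The ranks of the sites in both mock lists had a Spearman rho of 0.455 over 382 sites, against 0.947 over all 5344 regions, whose ranks span the whole list.

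The sites were mostly promoters. Of the sites, 338 (88.5%) came within 1500 bp of a TSS, which was taken as the promoter. Another 22 lay in introns, 9 in exons and 13 between genes. The promoter share was 96.2% over all shared regions, 98.5% over the 2303 regions present in all 4 knockdown lists and 91.8% over the other low-ranked regions. A TSS lay inside 60.5% of sites, compared with 89.3% of all shared regions and 97.5% of those kept in all 4 lists. Within the last 2 deciles these shares were 59.3% for sites and 74.1% for other regions. The midpoint was downstream of the nearest TSS at 75.7% of sites, at a median signed distance of 100.5 bp, against 71.5% and 83 bp over all shared regions. Divergent promoters, with TSSs on opposite strands within 1000 bp, were found at 24.9% of sites and 34.2% of all shared regions. For regions in 1, 2, 3 and 4 knockdown lists the share was 30.9%, 36.1%, 41.1% and 32.7%, so it did not rise throughout.

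**Figure D3:**
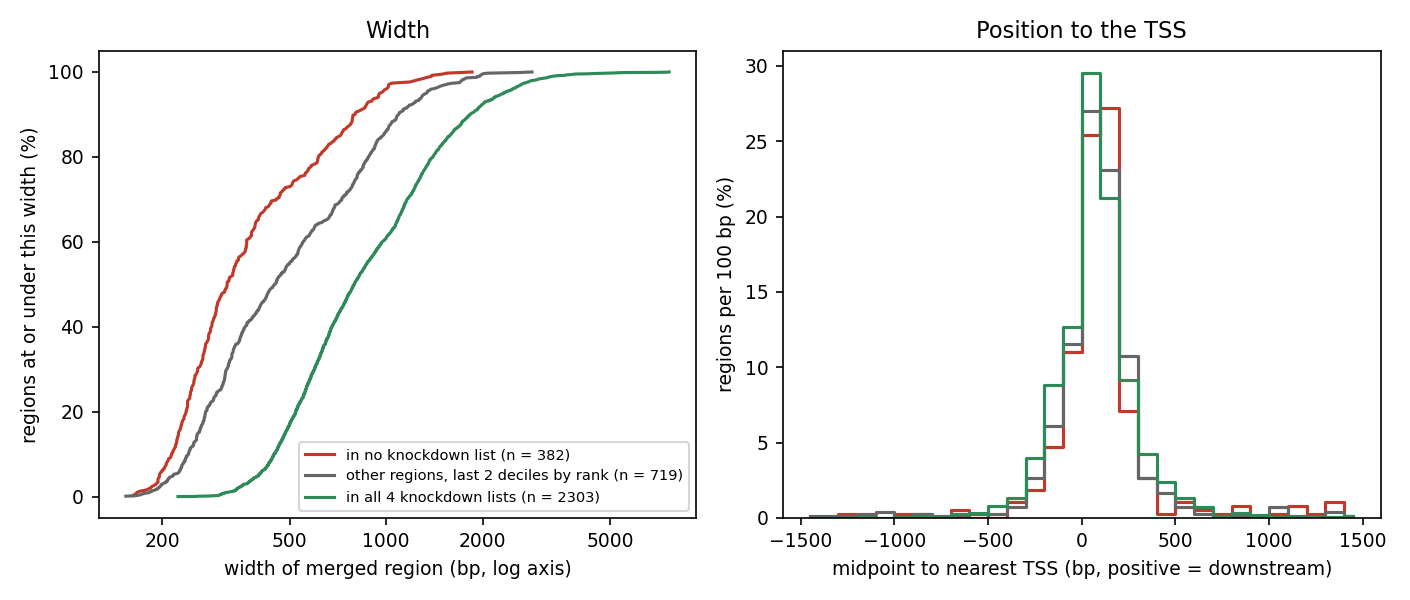
Left, the cumulative percent of regions (y axis) at or under a given width (x axis, bp, log scale). Right, the percent of regions per 100 bp (y axis) by distance of the midpoint from the nearest TSS (x axis, bp, positive downstream). Red is the 382 sites, grey the 719 other regions in the last 2 deciles and green the 2303 regions in all 4 knockdown lists, with median widths of 319, 451 and 796 bp.

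The 10 best-ranked sites were near genes of varied roles. The first was at CG42741 (chr2R:23042693-23043081), ranked 2560 of 5965 in mock replicate 1 and 2029 of 5601 in mock replicate 2, with −log10 q of 19.6 and 19.1. The second was at metro (chr2R:11232287-11232571), which encodes a scaffold protein of the neuromuscular junction, at ranks 2449 and 2813. Both were thus near the middle of both mock lists. The nearest knockdown peak, in siAGO2 replicate 2 for both, lay 19271 bp away from the first and 9138 bp from the second. The third site (chr3R:8090469-8090684) lay 712 bp from the TSS of lncRNA:CR44330 and shared 92 bp with an annotated 297 retrotransposon. Its ranks were 2462 and 3806, so the mock replicates differed there.

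MtnA, which encodes a metallothionein that binds copper and cadmium, had the next promoter site on this list. That site (chr3R:9784191-9784513) ranked 3586 in mock replicate 1 and 3250 in mock replicate 2, with −log10 q of 11.6 and 10.0, and its midpoint was 18 bp downstream of the TSS. CG8500, on the other strand, also has a TSS within 500 bp of it. The nearest knockdown peak, in dsLaminB replicate 2, was 5567 bp away. The site at Pepck2 (chr2R:18527317-18527635), a phosphoenolpyruvate carboxykinase gene of gluconeogenesis, ranked 3356 and 3642. That at Cyp40 (chr3L:9630058-9630315), a cyclophilin gene, ranked 3302 and 3791. OtopLc (chrX:5662708-5662984), of the otopetrin proton channels, ranked 3386 and 3507. Ankle2 (chrX:17575876-17576190) ranked 4396 and 2915, and FANCI (chr2R:8939514-8939879), a DNA crosslink repair gene, 3525 and 3742. The remaining site of the 10 was in an intron of bbc (chr2R:13492344-13492611), a phospholipid synthesis gene, at ranks 3727 and 2981. These sites were 216 to 389 bp wide.

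At the other end were sites that only just passed in mock. Golgin104 (chr3L:16351611-16352331) was 5955 of 5965 in mock replicate 1, with a −log10 q of 1.17, and 5386 of 5601 in mock replicate 2. RfC3 (chr2L:10419146-10419655), a subunit of the clamp loader of DNA replication, had −log10 q of 2.21 and 1.17. CG8204 had 1.61 and 2.01, px 1.80 and 1.5, and the site near lncRNA:CR45568 1.65 and 1.31. Each of these 5 sites was within the last 5% of the list of mock replicate 1.

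The widest sites were at pn (1853 bp), known for its eye-colour mutants, spi (1549 bp), which encodes an epidermal growth factor receptor ligand, and an exon of Smr (1492 bp), a corepressor gene. Flo2 (1388 bp), a flotillin gene, followed. At pn the width came from 1 library, with a peak of 1853 bp in mock replicate 1 and of 735 bp in mock replicate 2. At spi both peaks were wide, 1398 and 1526 bp. The 5 sites that covered most of a coding gene of at least 1000 bp were those at RpL38, dgt4, ppl, CG5846 and Tim23. Peaks covered 100% of RpL38 in mock replicate 1 and 69.5% in mock replicate 2. They covered 54.8% and 61.1% of dgt4, a subunit of the augmin complex that nucleates spindle microtubules, and 48.3% and 52.3% of ppl, the H protein of the glycine cleavage system. For CG5846 the values were 45.2% and 48.4%, and for Tim23, a pore subunit of the mitochondrial inner membrane, 45.6% and 45.9%.

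In all, 437 genes had a TSS within 500 bp of a site, of 7187 such genes at the shared regions (6.08%), and 408 of them were protein coding. Of these 408, 343 (84.1%) had no knockdown peak anywhere on the gene body. The rule had already excluded one at the site, and the same share over all coding genes at shared regions is not given. Some of the 343, such as Arl2 and lush, had no mock peak on the body either. Another 35 (8.58%) had a knockdown peak in each of the 4 lists. Their median length was 17326 bp, against 1977 bp for the 343. EcR, the ecdysone receptor gene, is of this second kind. Its site (chr2R:6156949-6157200) had −log10 q of 8.67 and 4.75 in mock, and other peaks covered between 0.495% and 1.14% of the gene in the 4 knockdown lists. EcR and the genes of the next sentences were picked after their values had been seen. The insulin receptor gene InR had 2 sites, at a promoter and at an exon, and also kept peaks elsewhere on its body in all 4 lists. Ankle2, spi, SerRS-m and Atg8a, named by rule in other paragraphs, likewise kept peaks on the body in all 4 lists. At Atg8a these covered between 10.7% and 21.9% of the gene, against 26.8% and 20.8% in the mock lists. By contrast, no knockdown peak was present on da, which encodes the general basic helix-loop-helix factor Daughterless, on zld, whose product Zelda opens the early embryonic genome, or on M1BP, whose product binds core promoters. The same held for Egfr, CTCF and aub, which encode a receptor tyrosine kinase, an insulator protein and a piRNA-pathway Argonaute. Mock peaks on these genes were themselves small, covering from 0.0825% (Egfr, mock replicate 2) to 12.9% (M1BP, mock replicate 2) of the body. The site at CTCF had a mean rank of 93.5%, near the end of the mock lists. Median length of the coding genes was 2249.5 bp at the sites, 3018 bp at all shared regions and 4580.5 bp at regions in all 4 knockdown lists.

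Of 64 mitochondrial ribosomal protein genes with a TSS at a shared region, 9 (14.1%) were at a site: mRpL14, mRpL24, mRpL27, mRpL32, mRpL41, mRpL43, mRpL45, mRpL49 and mRpS18C. The sites of mRpL24, mRpL27, mRpL32 and mRpL43 were assigned to the neighbours betaggt-I, CG15435, qless and CG30183, so these peaks cannot be given to 1 gene. Nor can that of mRpS18C, which shared its site with CG15535, a gene covered by 26.6% and 27.4% in the mock lists. Mock peaks covered 0% of mRpL24 in both replicates, and 0% of mRpL32 and mRpL43 in mock replicate 2. Only 10 of the 64 (15.6%) were at a region present in all 4 knockdown lists, against 3323 of all 7187 genes (46.2%). The family's promoters had a median mean rank of 63.3% in mock, against 45.5% for all genes, and 22 of the 64 genes lay in the last 2 deciles. There, 9 of the 22 were at a site, beside 405 of 1348 genes of any kind. The values of single genes spread widely. At mRpL45 (chr3R:22618464-22618735), ranks were 72.3% and 84.3% in the mock lists, and at mRpL14 (chrX:2344461-2344734) they were 96.0% and 95.9%.

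Subunits of the respiratory chain were at a site in 5 of 65 cases (7.69%), near the 6.08% of all genes, namely COX7A of complex IV, UQCR-11 of complex III, and ND-13B, ND-B14.7 and ND-MLRQ, named for complex I. COX7A (chr3R:8340465-8341029) was the best ranked of these, at 79.5% and 67.8%, and UQCR-11 the poorest, at 98.1% and 94.1%. Arl2 also has a TSS within 500 bp of the COX7A site. The import subunits Tim23 and Tim9b were at a site out of 10 TIM and TOM genes (20%), and Tim9b shared its site with Pstk. Mitochondrial aminoacyl-tRNA synthetases gave both members of their list, IleRS-m and SerRS-m, of 30 genes (6.67%), again near the share of all genes. None of these list counts was tested.

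Cytosolic ribosomal protein genes were seldom at a site, in 2 of 87 cases (2.3%), and 65 of the 87 (74.7%) were at a region present in all 4 knockdown lists. Of these 2, RpL34a shared its 1332 bp site with PIG-P, Tcs6 and Trmt61, so the peak cannot be given to 1 gene. The median mean rank of the 87 genes in mock was 35.2%, a better rank than that of the mitochondrial ribosomal protein genes. Only 4 of the 87 lay in the last 2 deciles, and 2 of these 4 were at a site, beside 405 of 1348 genes of any kind. The sites at RpL34a and RpL38 had mean ranks of 80.8% and 92.0%. Heat shock protein genes had 0 of 15 at a site, translation initiation factors 0 of 33, cyclins and their kinases 0 of 18, and tubulins and actins 0 of 9. In lists of these sizes, the 6.08% of all genes corresponds to a few genes at most. Proteasome subunits had 1 of 33, Rpt3R, a paralog of the base ATPase Rpt3. Alg12 also has a TSS within 500 bp of the Rpt3R site. Chemosensory genes had 0 of 5 and Hox genes 0 of 2.

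Other lists had few genes at a site. Subunits of Mediator, TFIID or Integrator had 3 of 45, MED24, Taf5 and IntS10, and the vacuolar ATPase 2 of 19, VhaM9.7-a and VhaM9.7-c. Single genes came from the glutathione S-transferases (GstD2, of 25), cytochromes P450 (Cyp28d1, of 17), UDP-glycosyltransferases (Ugt36A1, of 9), nucleoporins (Nup54, of 23), RNA polymerase subunits (Polr1C, of 26), Rab GTPases (Rab39, of 23) and autophagy genes (Atg8a, of 14). For the histones it was His3:CG33866, 1 of 5, in the repeated histone cluster, where reads of near-identical copies cannot be told apart. Its site lay upstream of the TSS, mock peaks covered 0% of the gene, and 122 bp of the site overlapped a pogo element. Several sites were shared. That of VhaM9.7-a was assigned to CG11586, with 0% of VhaM9.7-a covered in both mock replicates, and that of Polr1C to Scox. Other genes also had a TSS within 500 bp of the sites of Taf5, IntS10 and Nup54. Genes known only by a CG number had 142 of 1958 (7.25%) at a site and long or antisense noncoding RNAs 22 of 316 (6.96%), both near the 6.08% of all genes. At a site were 1 of 108 snoRNA or scaRNA genes (0.926%), 0 of 18 snRNA genes, 0 of 15 tRNA genes and 1 of 37 microRNA genes. Of the 108, 98 (90.7%) were at a region present in all 4 knockdown lists, and only 5 lay in the last 2 deciles. The microRNA gene, mir-4942, was at the site of ND-MLRQ. For the snRNA, tRNA and microRNA lists, the 6.08% of all genes corresponds to a few genes at most.

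**Figure D4:**
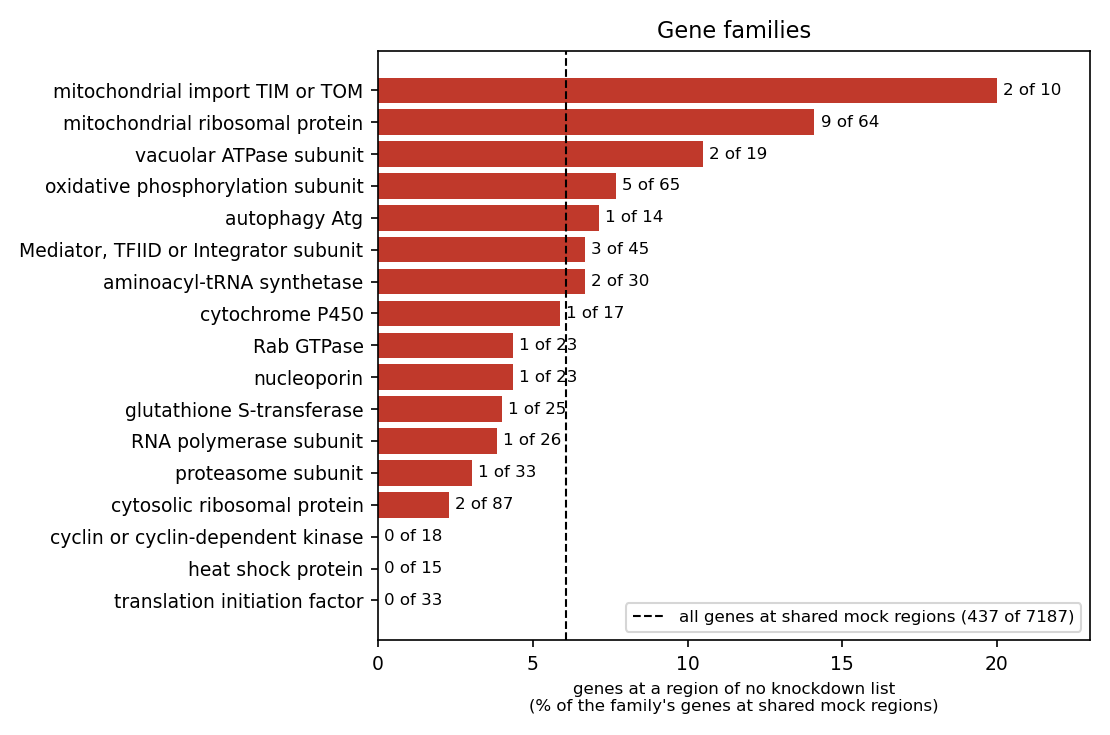
Bars give, for the gene lists described in the text (y axis) that had at least 10 genes at shared mock regions, the percent of those genes (x axis) whose TSS lies within 500 bp of a site; the counts stand beside the bars. The dashed line is the value for all genes, 437 of 7187, and mitochondrial ribosomal protein genes (9 of 64) lie to its right while cytosolic ones (2 of 87) lie to its left. Bars take no account of rank in mock, where the median mean rank was 63.3% for the mitochondrial and 35.2% for the cytosolic list.

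Promoter motifs were counted in the 300 bases from 250 before the TSS to 50 from it on, on both strands, at the 308 sites with a coding TSS within 500 bp. The E-box CAGCTG was present at 31.5% of these, at 21.4% of the 4985 shared regions with such a TSS and at 17.9% of the 19276 coding promoters of the annotation. The other low-ranked regions had it at 28.8%, against 32.7% for the low-ranked sites. The GAGA element GAGAG ran the other way, with 27.3% at the sites, 36.4% over shared regions, 46.4% at regions in all 4 knockdown lists and 33.1% over the annotation. Its shares in the last 2 deciles were 26.0% for sites and 28.7% for other regions. The DRE TATCGATA was at 15.3% of sites, 14.0% of shared regions and 7.98% of all promoters. TATAAA anywhere in the window was at 48.1% of sites, 40.8% of shared regions and 42.2% of all promoters, and TCAGT at 42.9%, 49.6% and 52.0%. For DRE, GAGAG and TCAGT, sites and other low-ranked regions lay within 3 percentage points of each other.

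The sites were spread over the genome. There were 91 on 3R, 86 on 2R, 75 on 2L, 67 on 3L, 60 on X and 3 on chromosome 4. The X share was 15.7%, against 18.8% of all shared regions and 17.7% of the other low-ranked ones. Only 20 sites lay within 5000 bp of the preceding site, so few were neighbours. The end of each arm at the centromere, examined after the values had been seen, held 10 sites in its last 1 Mb, which is 2.64% of the 379 sites off chromosome 4. Of all shared regions off chromosome 4, 29 of 5318 (0.545%) lay there, so sites made up 34.5% of the shared regions in these ends, and regions in all 4 knockdown lists 37.9%. Within 2 Mb the sites were 16% of the shared regions and within 5 Mb 9.21%, against 7.15% over the genome. On 2L there were 7 of the 10, at CG17493, CG40006 (2 sites), the splicing factor gene Spf45, lncRNA:CR46450 and Tim23 (2 sites). On 3L were those near CR43170 and at l(3)80Fj, and on X that at su(f), a gene of mRNA 3′ end processing. Spf45 had the best rank of these, at 62.7% and 72.6%, and the others reached 97.9% in mock replicate 1 and 99.9% in mock replicate 2. Over the genome, sites were 20% of the shared regions in decile 9 by mean rank and 45.3% in decile 10. The arm ends were not compared at like rank. Annotated transposable elements were overlapped by 12 sites (3.14%), 1.61% of all shared regions and 1.39% of other low-ranked ones. They included INE-1 at nolo and RpL38, pogo beside His3:CG33866, Cr1a near AGO3 and GATE near lncRNA:CR46075.

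The rule excludes overlap with a knockdown peak, so distances to such peaks are not independent of it. The nearest peak of any knockdown list was at a median of 3174 bp. It lay within 500 bp at 3 sites, within 1000 bp at 49 (12.8%) and within 5000 bp at 241 (63.1%). Distances for other regions are not given. The sites nearest to failing the rule were px, 22 bp from a peak of siAGO2 replicate 2, CG5861 at 39 bp, dgt4 at 203 bp, CG5515 at 506 bp and cype at 517 bp. The regions that just failed it overlapped a peak of siAGO2 replicate 2 alone, by 22 bp at CR31032, 61 bp at CG10147, 91 bp at P5cr, 96 bp at sima and 105 bp at Fdx1. Mock ranks of these 5 regions were 89.5% to 96.6% in replicate 1 and 73.2% to 97.8% in replicate 2, which overlaps the range of the sites. The sites farthest from a TSS lay in an intron of CG40006 (66192 bp), near lncRNA:CR46075 (52509 bp), in an intron of l(3)80Fg (50806 bp), near CG41128 (38990 bp) and near IntS3 (26103 bp).

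Other thresholds chose other regions. When peaks in all 6 lists had to reach a −log10 q of 5, 634 regions met it, of which 47 were among the 382 sites, all those with such a −log10 q in both mock lists. With the 2531 top-ranked peaks of each list, 26 regions met it, and 0 of them were among the 382, since no site was among the 2531 top-ranked peaks of both mock lists. In both mock libraries, 12.3% of the sites had a −log10 q of at least 5, compared with 80.8% of all shared regions. Whether the 382 sites lost Pol II, or fell under the threshold of shorter lists, was not tested, since read depth is unknown here.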

How the data were processed

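Pol II (8WG16) chromatin immunoprecipitation was analysed in 6 Kc167 libraries, 2 per treatment, with groups and replicates from the sample titles. The 6 input samples entered only through the authors' peak calling. Per the submitters' processing notes, the authors used cutadapt 1.10, Bowtie2, Picard 2.11.0 and MACS2 2.1.1.20160309, in broad mode, per replicate against its input, after removal of duplicates and of reads of low mapping quality. The assembly was dm6. The deposited lists give a score, a fold enrichment (ratio over local background), −log10 p and −log10 q. The deposited score was not used. The deposited fold ratio and the authors' −log10 p and −log10 q values were used within a list only, for ranks and filters. They are not comparable between lists, and depth is unknown, so no value was scaled.

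Regions were merged and overlapped in Python 3.11.15 (pandas 2.3.3, numpy 2.4.6), with an overlap of at least 1 bp, and the code was tested on simulated data. Coordinates count from 1. Genes came from Ensembl release 115 without transposable elements, and 0 peaks lay beyond a chromosome end. A site was assigned to the coding gene whose TSS it held or had nearest within 500 bp, otherwise to any such gene, the overlapping gene or the nearest one. Members, lists and alternatives were chosen with earlier results of these data known. Genes were named by rule: the 10 best-ranked, 5 widest, 5 poorest-ranked, 5 covering most of a coding gene, 5 farthest from a TSS, and each gene of a protein family list. A few of these are not reported here. Cyclophilins and Rab regulators were removed from the P450 and Rab lists after values were seen. The marker symbols Lsp, nos and Pdm1 were not matched to a gene. No test was run, since the rule used the contrast. Alternatives were a −log10 q of at least 5, equal list lengths, joining within 1000 bp, 50% coverage, a 500 bp margin, main arms, each library left out, other promoter windows and ranking by fold.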

Additional observations from a re-analysis of the deposited data

How the results depend on the processing

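The count of 382 sites depended on the lists more than on the joining of peaks. It was 634 with a −log10 q of at least 5, 26 with equal list lengths and 720 when a list had to cover at least 50% of a region to count as present, and 47, 0 and 317 of the original sites met the rule in turn. Joining within 1000 bp gave 326, a margin of 500 bp 379 and main arms only 382. Leaving out 1 library gave 384 to 1118, with siAGO2 replicate 2 at the upper end, and 832 without mock replicate 2. The promoter share was 77.6% to 96.2% over the alternatives, and the median rank in mock replicate 1 was 37.0% to 90.2%. No paired analysis was possible because the result comes from no test. With 2 libraries per treatment and depth unknown, absence of a peak does not measure how much occupancy changed. Over all results and alternatives, 56 values stayed within the spread between the mock libraries or 1.5 times the count, and 43 moved further.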
